A study of Mus musculus with 8 samples.

Results

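The genes described here are 10 targets of the transcription factor p53 whose products promote cell death: the BH3 protein genes Pmaip1 and Bbc3, the death receptor genes Eda2r, Fas and Tnfrsf10b, the death domain gene Pidd1, the membrane protein genes Perp and Ei24, and the nuclear effector genes Trp53inp1 and Aen. They were chosen by name, with earlier results of these data known. Every set of probes annotated to a single gene among them was taken. This gave 15 of the 45037 probe sets tested and 10 of 18193 genes. Of the 10 genes, 7 were read by 1 probe set and 3 by several (Tnfrsf10b, Trp53inp1 and Aen). RNA of E12.5 embryonic mouse brain was measured on 8 Affymetrix whole-genome arrays. The series asked how gene expression in the embryonic brain differs when the repressor REST is lost from neural progenitors. Of the arrays, 4 held Cre+, Rest GTi/GTi brain (Cre+ hereafter) and 4 held Rest GTi/GTi control brain, each labelled as a biological replicate of strain C57/BL6. Both genotypes were homozygous for GTi, an inverted gene-trap cassette in Rest that allows normal splicing. In Cre+, Rest GTi/GTi embryos a Cre recombinase driven by the Nestin promoter, active in neural progenitors, turns the cassette back so that Rest is disrupted. The controls carried no Cre, so the transgene and the loss of REST cannot be told apart. Whether an array held 1 embryo or a pool is not given in the sources used here.

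p53 is a transcription factor that is held low by Mdm2 and accumulates when DNA is damaged or replication is disturbed. It then induces genes that stop the cell cycle, repair DNA or kill the cell. The killing programme has an arm at the mitochondrion, where BH3 proteins neutralise or activate members of the Bcl2 family, and an arm at the cell surface, where death receptors recruit caspases through adaptor proteins. In the embryonic brain, neural progenitors are known to be prone to p53-dependent apoptosis.

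RefSeq promoter windows on build GRCm38.p6, each running from 250 bases before to 50 bases after an annotated start, were at hand for 6 of the 10 genes (Bbc3, Eda2r, Fas, Pidd1, Ei24 and Aen). They were searched for the p53 half-site, a motif of 10 bases (a decamer) that is only part of a full site. Sequence outside the windows was not searched. The half-site has 3 purines, C, 2 bases that are each A or T, G and 3 pyrimidines. It reads as the same motif on both strands. Its letters occurred in windows of 2 of the 6 genes, Ei24 and Aen, against 9.55% of the 27025 genes with a window and 8.36% of all 32851 windows. The windows of 3 genes that lay above every control on all Cre+ arrays are shown, 5′ to 3′ on the strand of the gene, with the decamer in capitals. Eda2r, for which no decamer was found, is at chrX:97377160-97377459 (minus strand), Ei24 at chr9:36797285-36797584 (minus strand) and Aen at chr7:78895677-78895976 (plus strand).
Eda2r: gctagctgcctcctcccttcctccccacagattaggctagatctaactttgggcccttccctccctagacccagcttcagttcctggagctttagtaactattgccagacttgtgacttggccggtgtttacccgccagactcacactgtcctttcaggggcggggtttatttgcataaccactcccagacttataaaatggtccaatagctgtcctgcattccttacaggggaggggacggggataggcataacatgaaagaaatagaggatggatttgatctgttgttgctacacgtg
Ei24: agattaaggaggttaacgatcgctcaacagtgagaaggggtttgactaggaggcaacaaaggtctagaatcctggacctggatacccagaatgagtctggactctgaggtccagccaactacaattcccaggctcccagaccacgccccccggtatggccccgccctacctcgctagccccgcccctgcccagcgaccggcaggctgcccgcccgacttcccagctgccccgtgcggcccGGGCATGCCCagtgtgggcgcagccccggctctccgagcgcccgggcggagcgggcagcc
Aen: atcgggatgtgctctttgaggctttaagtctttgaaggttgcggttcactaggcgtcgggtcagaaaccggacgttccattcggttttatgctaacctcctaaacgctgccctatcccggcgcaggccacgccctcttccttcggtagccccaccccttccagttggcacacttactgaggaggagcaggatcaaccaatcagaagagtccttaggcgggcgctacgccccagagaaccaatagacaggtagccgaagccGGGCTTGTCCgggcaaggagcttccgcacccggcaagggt
The Ei24 decamer, GGGCATGCCC, began 10 bases before the annotated start, and the Aen decamer, GGGCTTGTCC, began 10 bases after it. A further Aen window, chr7:78895808-78896107, overlapped the printed one and held the same decamer 121 bases upstream of its own start (position -121). Among the other p53 targets listed below, 9 of the 25 with a window held the decamer, Cdkn1a, Mdm2 and Ccng1 among them. A match of letters is a description of the window and was not tested for binding.

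The deposited intensity values were brought to 1 distribution by quantile normalization, and every intensity given below is on that scale. Tests were made with limma on log2(intensity + 16), and a log2 fold change is Cre+ minus control on that scale, which understates the change of dim probe sets. A probe set was called at a Benjamini-Hochberg adjusted p under 0.05 over all probe sets. Arrays correlated with each other at Pearson r of 0.982 to 0.991. Cre+ replicates 1 and 2 stood apart from the other 6 arrays on the first principal component, at -34.1 and -48.4 against 3.1 to 27. The summed intensity of 12 mesenchyme markers was 10294.8 and 15030.9 on those arrays, 890.3 and 710.1 on Cre+ replicates 3 and 4, and 637.1 to 1538.7 on the controls. Neural progenitor and neuron markers were present on all arrays, with 0 of 7 and 0 of 6 genes called in either direction by limma, and 0 at an unadjusted p under 0.05. The shares of all genes were 0.214% called higher, 0.011% called lower and 3.94% higher at an unadjusted p under 0.05. Rest itself, by its brightest probe set, read 163.1, 216.7, 84.4 and 133.7 in Cre+ brain and 170.1, 271.8, 211.1 and 198.3 in controls (log2 fold change -0.51, adjusted p = 0.758 by limma), so the ranges overlapped. Control replicates 2 and 3 carried Xist at 7875.1 and 8247.1, the other arrays at no more than 57.8, so female signal was found among the controls alone.

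The limma test called 2 of the 15 probe sets higher in Cre+ brain, those of Eda2r and Pmaip1, and 0 lower. Over all probe sets 0.133% were called higher and 0.00666% lower. At an unadjusted p under 0.05, 8 of the 15 were higher and 0 lower, against 3.22% higher and 3.65% lower over all probe sets. Several of the 8 were probe sets of Aen. By brightest probe set, 5 of the 10 genes were higher at that threshold and 0 lower, against 3.94% of all genes higher. Every Cre+ array lay above every control for 6 of the 15, against 1.87% of all probe sets. By brightest probe set these were 4 of the 10 genes (Pmaip1, Eda2r, Ei24 and Aen), against 2.48% of all genes. The log2 fold change by the brightest probe set was above 0 for 10 of the 10 genes, where it was above 0 for 49.5% of all genes. Its median was 0.36 over the 10 genes and -0.0014 over all genes. With no scaling between arrays, or with 1 in place of 16 as the constant, 0 of the 15 were called. With Cre+ replicates 3 and 4 as the only Cre+ arrays, 0 were called as well, at log2 fold changes of 1.39 for Eda2r (adjusted p = 0.328 by limma) and 0.96 for Pmaip1 (adjusted p = 0.152). In bulk tissue, a change in the number of cells that make an RNA and a change in the amount per cell cannot be told apart.

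**Figure D1:**
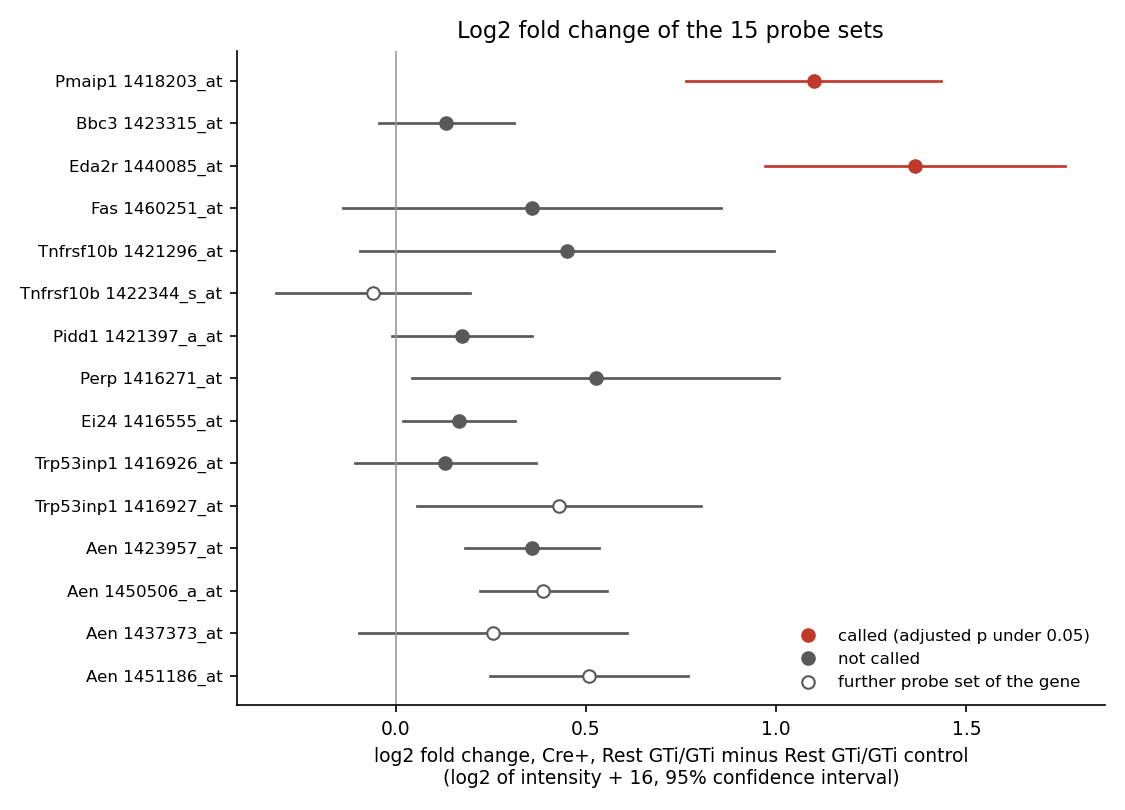
Log2 fold change (horizontal axis, Cre+ minus control, with the 95% confidence interval of limma) of the 15 probe sets of the 10 genes. Eda2r at 1.37 and Pmaip1 at 1.10 (red) are the called probe sets, and of the rest, a single probe set of Tnfrsf10b lies below 0.

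Of the BH3 protein genes, Pmaip1 was higher in Cre+ brain and Bbc3 was not called. Pmaip1 encodes Noxa, which binds and neutralises the survival protein Mcl1. Its probe set 1418203_at read 76.9, 47, 46.8 and 48.5 on Cre+ replicates 1 to 4, and 15.1, 15.1, 14.2 and 22.6 on control replicates 1 to 4. The groups did not overlap, the lowest Cre+ array being 2.07 times the highest control, and 3 of the 4 controls lay under the added constant of 16. The means were 54.8 ± 14.8 in Cre+ brain and 16.7 ± 3.94 in controls (SD, n = 4 each). The log2 fold change was 1.10 (95% confidence interval 0.764 to 1.43, adjusted p = 0.0399 by limma), and the two-sided exact permutation test over 70 splits of the arrays gave p = 0.0286, the smallest it can give with 4 against 4. With so dim a control group the size depended on the constant, at 1.64 with 1 and 0.64 with 50 (adjusted p = 0.0673 and 0.0728). The separation was also present in the values as deposited, before normalization. The call was lost in 7 of the 8 fits that left out an array (adjusted p 0.0613 to 0.163 by limma) and kept only without Cre+ replicate 1 (0.0329), while the log2 fold change stayed between 0.96 and 1.18. It was also lost with the covariate for sex signal (adjusted p = 0.309 by limma, log2 fold change 1.01).

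Bbc3 encodes Puma, a BH3 protein that binds every survival member of the Bcl2 family. Its probe set 1423315_at read 147.6, 165.9, 168.9 and 154.2 in Cre+ brain, against 157.1, 148, 133.3 and 136.9 in controls. The ranges overlapped, the highest control lying above 2 of the Cre+ arrays. The log2 fold change was 0.13 with a 95% confidence interval of -0.044 to 0.31 (adjusted p = 0.805 by limma, exact permutation p = 0.143).

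Of the death receptor genes, Eda2r was higher in Cre+ brain, and Fas and Tnfrsf10b were dim and not called. Eda2r, on the X chromosome, encodes a receptor of the tumour necrosis factor family that binds the A2 form of ectodysplasin. Its probe set 1440085_at read 102.3, 87.4, 100 and 97.1 on Cre+ replicates 1 to 4, and 19.3, 34.7, 42.6 and 18.7 on control replicates 1 to 4. The Cre+ arrays lay close together and the lowest was 2.05 times the highest control. The means were 96.7 ± 6.55 in Cre+ brain and 28.8 ± 11.8 in controls (SD, n = 4 each), a ratio of 3.35. On the log2 scale the difference was 1.37 (95% confidence interval 0.971 to 1.76, adjusted p = 0.03 by limma, exact permutation p = 0.0286). The groups were separate in the values as deposited too. The call was lost in 7 of the 8 fits that left out an array (adjusted p 0.0687 to 0.131 by limma) and kept only without control replicate 3 (0.0262), with log2 fold changes of 1.26 to 1.51.

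The Eda2r controls fell into a higher and a lower pair. The higher pair, 34.7 and 42.6, were the arrays with Xist signal, and the lower pair, 19.3 and 18.7, had none, as had all Cre+ arrays. Against the controls without Xist signal alone, the log2 fold change was 1.69 (SE 0.09, adjusted p = 0.0398 by limma). With the log2 value of Eif2s3y as a covariate for sex signal it was 1.71 (adjusted p = 0.00652 by limma).

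Fas, the receptor of Fas ligand, read 3.4, 25.3, 16.1 and 10.8 in Cre+ brain, against 5, 8.9, 3 and 9.5 in controls (probe set 1460251_at). The lowest Cre+ array lay among the controls, all of which were under 16. The log2 fold change was 0.36 with a wide interval of -0.138 to 0.856 (adjusted p = 0.813 by limma). Tnfrsf10b is the mouse receptor for the death ligand TRAIL. Its brighter probe set 1421296_at read 14.9, 15.8, 15 and 22.1 in Cre+ brain, against 1.4, 2.1, 21.4 and 12.2 in controls, with a log2 fold change of 0.45 (95% confidence interval -0.093 to 0.995, adjusted p = 0.783 by limma). Control replicate 3 stood among the Cre+ arrays and the other 3 controls below them. Its second probe set, 1422344_s_at, read 2 to 4.3 in Cre+ brain and 1 to 7.8 in controls, with a log2 fold change of -0.06 (adjusted p = 0.962).

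**Figure D2:**
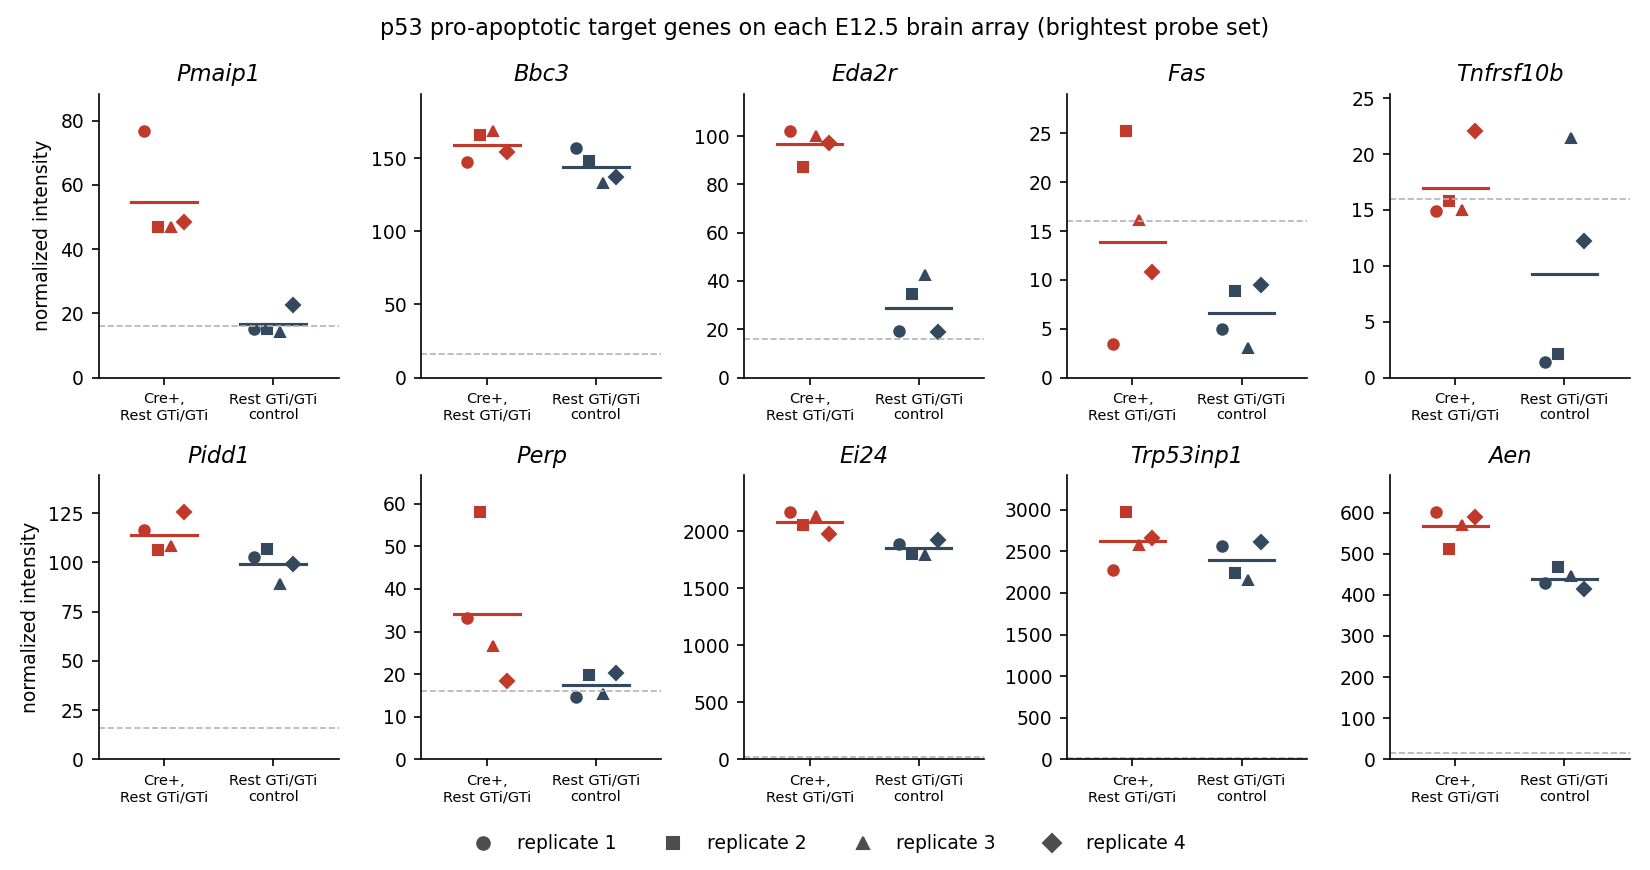
Normalized intensity (vertical axis, linear from 0) of the brightest probe set of each gene on the 4 Cre+ arrays (red, left) and the 4 control arrays (dark, right), with the mean as a line, a marker shape per replicate number and the added constant of 16 dashed. Cre+ points lie clear of the controls for Pmaip1 (46.8 to 76.9 against 14.2 to 22.6) and Eda2r (87.4 to 102.3 against 18.7 to 42.6), and by less for Aen and Ei24.

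Pidd1, Perp and Ei24 gave no call. Pidd1 encodes a scaffold with a death domain that activates caspase-2 together with the adaptor Cradd. Its probe set 1421397_a_at read 116.7, 106.2, 108.2 and 125.5 in Cre+ brain, against 102.6, 106.8, 88.9 and 99 in controls. The groups met at a single point, since the highest control was just above the lowest Cre+ array, and the log2 fold change was 0.17 (95% confidence interval -0.009 to 0.358, adjusted p = 0.744 by limma, exact permutation p = 0.0571).

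Perp encodes a membrane protein that takes part in p53-dependent apoptosis and is also a component of desmosomes in epithelia. Its probe set 1416271_at read 33.2, 58, 26.6 and 18.4 on Cre+ replicates 1 to 4, against 14.7, 19.7, 15.4 and 20.2 in controls. Replicate 2 was the highest and replicate 4 lay within the control range. On the log2 scale this was a difference of 0.53 (95% confidence interval 0.043 to 1.01, adjusted p = 0.693 by limma, exact permutation p = 0.0857). With Cre+ replicates 3 and 4 alone it was 0.20 (SE 0.128). The 15 surface epithelium markers summed to 498.5, 898.6, 378.5 and 363.9 on the Cre+ arrays and to 328.8 to 457 on the controls, with 0 of 15 called by limma and 2 higher at an unadjusted p under 0.05. The shares over all genes were 0.214% called higher and 3.94% higher at an unadjusted p under 0.05. The number of the 15 markers above every control was 6, 10, 1 and 3 on Cre+ replicates 1 to 4. The share of all genes above every control on a single Cre+ array was not counted, so these numbers are a description only. Replicate 2, where Perp was highest, held Epcam at 180.1 and Krt18 at 107.9, against at most 59.5 and 23.5 in controls, while Krt5, Krt15, Pkp1, Jup and Grhl2 were not above the controls there. Dsp, which encodes the desmosome protein desmoplakin, was the single marker of the 15 above every control on all 4 Cre+ arrays. Of all genes, 2.48% lay so. Dsp read 30.8, 67.7, 27.2 and 30.3 in Cre+ brain, against 13.9, 11.4, 7.4 and 7.9 in controls (log2 fold change 1.02, adjusted p = 0.252 by limma). The part of these cells in the Perp values was not tested.

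**Figure D3:**
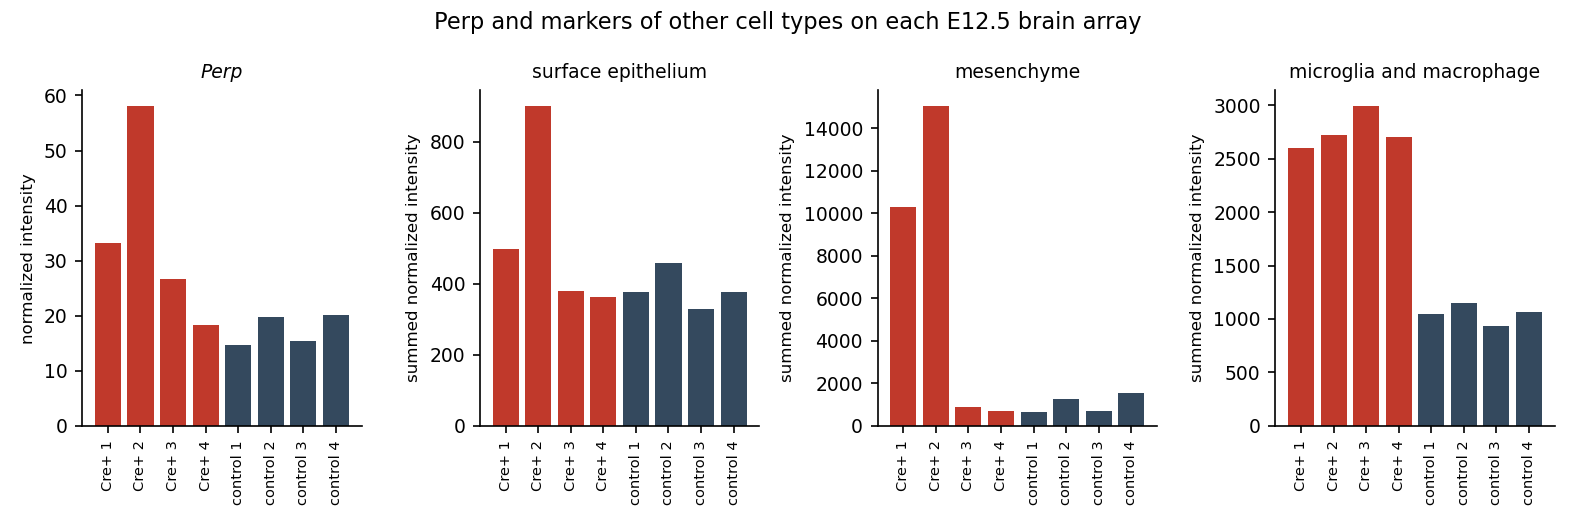
Normalized intensity of Perp and summed normalized intensity of 15 surface epithelium, 12 mesenchyme and 12 microglia and macrophage markers (bars from 0) on each array, Cre+ in red on the left and controls in dark on the right. Perp, the epithelial sum and the mesenchyme sum are highest on Cre+ replicate 2 (58, 898.6 and 15030.9), whereas the microglia sum is 2598.2 to 2988.4 on all 4 Cre+ arrays and 935.4 to 1147.2 on the controls.

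Ei24 encodes a membrane protein of the endoplasmic reticulum that was first found as a p53-induced gene and is also needed for autophagy. Its probe set 1416555_at read 2164.3, 2052.4, 2128.9 and 1977.5 in Cre+ brain, against 1887.9, 1803, 1789.8 and 1923.9 in controls. The groups were separate but by a small margin, with means of 2080 ± 83.2 in Cre+ brain and 1850 ± 65.1 in controls (SD, n = 4 each). Ei24 had a log2 fold change of 0.17 (95% confidence interval 0.02 to 0.314, adjusted p = 0.682 by limma, exact permutation p = 0.0286). In the values as deposited the groups overlapped.

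Of the nuclear effector genes, Aen was above the controls on 3 of its 4 probe sets without passing the adjusted test, and Trp53inp1 was not called. Aen encodes a nuclease of the nucleolus and nucleus that helps to break down DNA in apoptosis. Its brightest probe set 1423957_at read 600.9, 511.2, 569 and 590 in Cre+ brain, against 429.4, 468.8, 444.7 and 413.9 in controls. The groups were separate, with means of 568 ± 40 in Cre+ brain and 439 ± 23.4 in controls (SD, n = 4 each). Aen had a log2 fold change of 0.36 (95% confidence interval 0.182 to 0.533, adjusted p = 0.292 by limma, exact permutation p = 0.0286). Probe set 1450506_a_at read 193.5 to 228.9 in Cre+ brain and 155.3 to 162.4 in controls (log2 fold change 0.39, adjusted p = 0.186). Probe set 1451186_at read 25.4 to 35.4 in Cre+ brain and 13.1 to 23 in controls (0.51, adjusted p = 0.316). The remaining probe set, 1437373_at, overlapped, with 92.6 to 156.4 in Cre+ brain and 88.2 to 120.2 in controls (0.26, adjusted p = 0.811). The probe sets of Aen share the same RNA and are not replicates. The unadjusted limma p of the brightest was 0.0014, and in the values as deposited the groups were separate for 1451186_at but not for 1423957_at or 1450506_a_at.

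**Figure D4:**
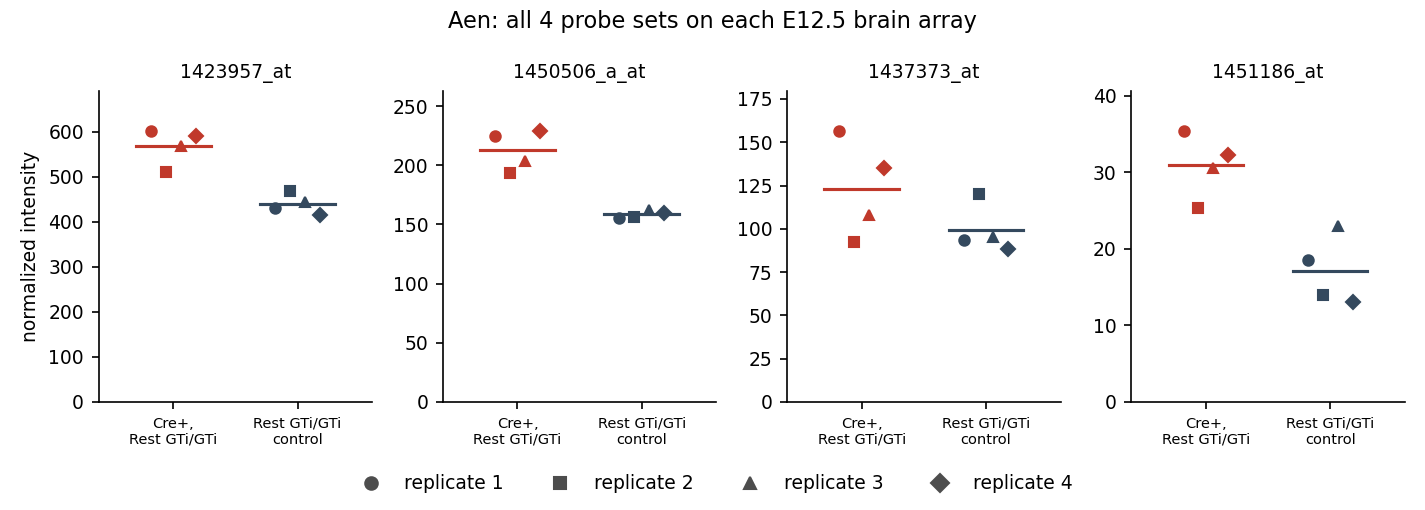
Normalized intensity (vertical axes, linear from 0) of the 4 probe sets of Aen on each array, Cre+ in red on the left and controls in dark on the right, with the mean as a line. The groups are separate for 1423957_at, 1450506_a_at and 1451186_at and overlap for 1437373_at, where control replicate 2 reads 120.2.

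Trp53inp1 encodes a nuclear protein that promotes phosphorylation of p53 and cell death. Its brighter probe set 1416926_at read 2280.3, 2970.6, 2575.6 and 2666 in Cre+ brain, against 2560.9, 2240.2, 2153.4 and 2619.1 in controls. The ranges overlapped, Cre+ replicate 1 lying below 2 controls, and the log2 fold change was 0.13 (95% confidence interval -0.108 to 0.368, adjusted p = 0.877 by limma). The dim probe set 1416927_at read 15.3, 13, 12.7 and 18.6 in Cre+ brain, against 4, 16.7, 4.6 and 4.4 in controls (log2 fold change 0.43, adjusted p = 0.675 by limma). Of those, control replicate 2 was the single control among the Cre+ values.

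On each array, the deviation from the control mean, as the median of log2 values over the 10 genes, was 0.29, 0.36, 0.36 and 0.28 on Cre+ replicates 1 to 4. On control replicates 1 to 4 it was -0.05, 0.07, -0.09 and 0.09. By this median, replicates 1 and 2, which stood apart in mesenchyme, did not stand apart. A median does not show single genes. Pmaip1 was highest on replicate 1 (76.9) and Perp on replicate 2 (58), while Tnfrsf10b was highest on replicate 4 (22.1). The part of mesenchyme in the values of the 10 genes was not tested.

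The other targets of p53 were described by a list of 32 genes of cell cycle arrest, feedback, metabolism, repair and survival, of which 30 were measured. By limma, 3 were called higher and 0 lower, where 0.214% of all genes by their brightest probe set were called higher and 0.011% lower. The log2 fold change was above 0 for 21 and below 0 for 9, with a median of 0.14. Cdkn1a, which encodes the cyclin-dependent kinase inhibitor p21, read 446.4, 439.1, 383.5 and 356.1 in Cre+ brain, against 175.9, 145.2, 168.3 and 168.2 in controls (log2 fold change 1.22, adjusted p = 0.00312 by limma). Phlda3, an inhibitor of Akt, read 254.8 to 328.4 in Cre+ brain and 103.1 to 157.5 in controls (1.00, adjusted p = 0.0325). Ccng1, cyclin G1, read 1169.8 to 1318.5 in Cre+ brain and 620.2 to 861.3 in controls (0.84, adjusted p = 0.0366). These groups did not overlap for any of the 3 genes. Over the 30 genes, every Cre+ array lay above every control for 8 and below every control for 1. The shares of all genes were 2.48% above and 2.15% below. Sesn2, a stress-induced regulator of mTOR signalling, read 123.8 to 147.9 in Cre+ brain and 56.4 to 85.2 in controls without passing the test (0.78, adjusted p = 0.0628), though it passed in 3 of 22 alternatives. Leaving out an array at a time kept the call of Cdkn1a in 8 of 8 fits, but lost those of Phlda3 and Ccng1 in 7 of 8 each (adjusted p up to 0.12 and 0.149). Mdm2, a feedback target of p53, read 651.3 to 738.3 in Cre+ brain and 659.1 to 759.8 in controls (log2 fold change -0.02, adjusted p = 0.983); it was named after its values were seen.

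The products with which the 10 act gave no call. Of 26 partner genes, 22 were measured, 0 were called by limma in either direction, and 2 were higher and 0 lower at an unadjusted p under 0.05. Over all genes, 0.214% were called higher, 0.011% were called lower and 3.94% were higher at an unadjusted p under 0.05. The median log2 fold change was -0.003, with 11 above and 11 below 0. Eda, whose A2 form is the ligand of Eda2r, read 34.7, 34.9, 40.4 and 42.8 in Cre+ brain, against 23.3, 17, 35 and 24 in controls (log2 fold change 0.42, adjusted p = 0.565 by limma). A single control, replicate 3, reached the Cre+ values. Casp8, the caspase recruited by death receptors, read 174.8, 165.9, 95.7 and 112.8 in Cre+ brain, against 70.8, 99.5, 97.9 and 105.2 in controls (0.46, adjusted p = 0.708), so that replicates 1, 2 and 4 were above the controls and replicate 3 was among them. Bcl2, a survival protein, had a log2 fold change of 0.17 (adjusted p = 0.746), and Mdm4, an inhibitor of p53, of -0.21 (adjusted p = 0.783). Mcl1, the partner of Noxa, read 1913.6 to 2159.9 in Cre+ brain and 1988.3 to 2114.1 in controls. The 8 BH3 partners measured had a median log2 fold change of 0.05 and the 3 apoptosome genes of 0.003.

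**Figure D5:**
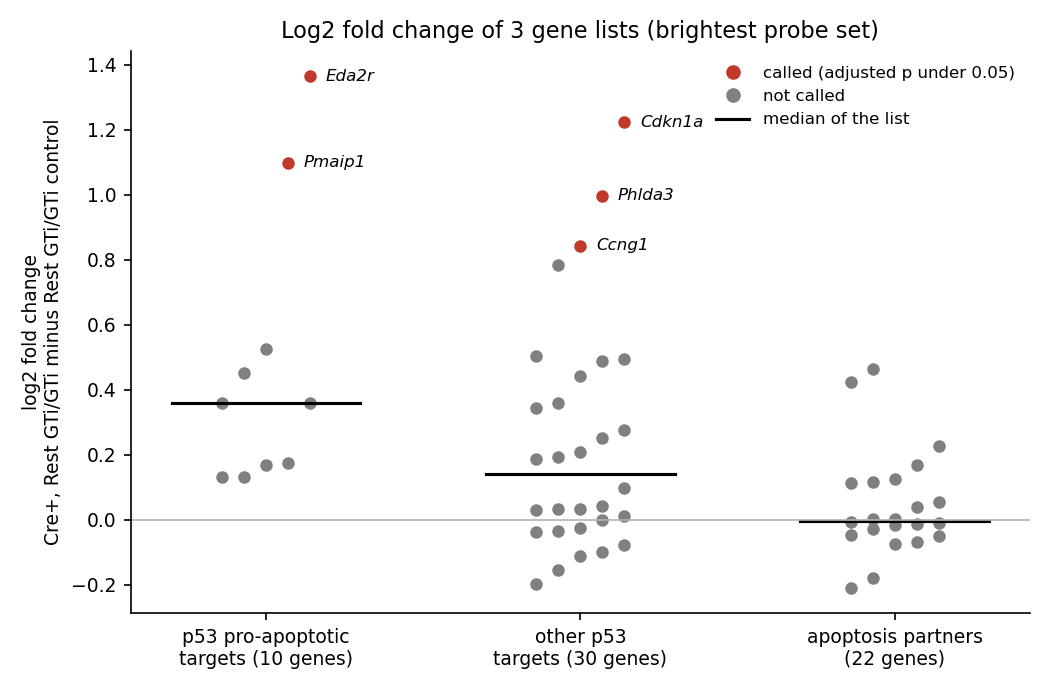
Log2 fold change (vertical axis, Cre+ minus control) of the brightest probe set of each gene in 3 lists: the 10 p53 pro-apoptotic targets, 30 other p53 targets and 22 apoptosis partners. Called genes are in red and named, bars mark the medians (0.36, 0.14 and -0.003), and no gene of the partner list is red.

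The genes most like the called pair over the 8 arrays included Cyba, Plek, Fcrls and Ly86, which are known from macrophages. The lysosomal proteases Ctsc and Ctsb were also among them, and the others were Rab32, Usp9y, Tpd52 and Cav3. By Pearson correlation of log2 values, those nearest to Pmaip1 were Rab32 (0.976), Usp9y (0.973), Cyba (0.972), Plek (0.971) and Ctsc (0.971). Those nearest to Eda2r were Tpd52 (0.977), Fcrls (0.971), Ctsb (0.970), Cav3 (0.970) and Ly86 (0.968). Usp9y and Cav3 were dim, with means of 11.1 and 5.83 in Cre+ brain and 2.62 and 2.63 in controls, all under the added constant. The correlations took no account of sex signal, which was female among the controls alone. Any gene that separates the genotypes correlates with any other over these arrays, so the values are a description only. Of 12 microglia and macrophage markers, 9 were called higher by limma, against 0.214% of all genes. The summed intensity of the 12 was 2598.2, 2724.6, 2988.4 and 2701.8 on Cre+ replicates 1 to 4 and 935.4 to 1147.2 on the controls. The part of microglia in the Pmaip1 and Eda2r values was not tested.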

How the data were processed

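RNA of 8 E12.5 mouse brain samples was hybridised to Affymetrix whole-genome arrays, 4 per genotype. The values deposited by the authors are linear intensity values per probe set that start at 0, with array medians of 40.9 to 68. The methods name RMA normalization with AffyPLM and log2 transformation, yet the deposited intensity values are neither log2 nor of equal distribution, and the step that made them is not given in the sources used here. Columns of no mapped sample numbered 0.

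After leaving out 64 Affymetrix controls, values were quantile normalized, 16 was added, and log2 values were tested with lmFit and eBayes (R 4.3.3, limma 3.58.1) with no filter on low values; 30.6% of probe sets had a mean below 16. Each p was adjusted by Benjamini-Hochberg over 45037 probe sets. Of these, 34945 carried a single gene in the platform annotation, 932 carried several, and 9160 were unnamed. A gene is represented by its brightest probe set. The test was checked on simulated data. Precision is limited by the number of arrays.

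All 10 genes were named, with called genes of the other lists, up to 4 per list ranked by smallest p, and the 5 genes most correlated with each called gene. Some listed genes, Gdf15, Gls2, Trp53, Bax and Bcl2a1a among them, were not analysed here. The members and lists were chosen with earlier results of these data known. Alternatives changed the scaling, the constant, the test, the filter, the probe sets, the arrays, a sex signal covariate and a replicate block.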

Additional observations from a re-analysis of the deposited data

Results flagged for a closer look

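In each group of 4 arrays, the highest and lowest value were compared with the rest by Dixon's criterion at its 95% critical value, which marks about 1 in 20 groups by chance. Of 30 groups (15 probe sets in each genotype), 4 held such a value. Pmaip1 read 76.9 on Cre+ replicate 1, where the other 3 read 46.8 to 48.5 (ratio 0.931), and 22.6 on control replicate 4, where the other 3 read 14.2 to 15.1 (0.874). The Tnfrsf10b probe set 1421296_at read 22.1 on Cre+ replicate 4 against 14.9 to 15.8 (0.863). The dim Trp53inp1 probe set 1416927_at read 16.7 on control replicate 2 against 4 to 4.6 on the other controls (0.942).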

How the results depend on the processing

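The direction of all Pmaip1, Eda2r and Aen probe sets held under every alternative run, with log2 fold changes of 0.64 to 1.64 for Pmaip1 and 0.91 to 1.80 for Eda2r, whereas their calls did not. Of 22 alternatives, Pmaip1 was called in 5 (adjusted p 0.0194 to 0.512) and Eda2r in 9 (0.00652 to 0.715). The 2 called member probe sets became 1 with cyclic loess, where Pmaip1 missed the threshold at 0.0507, and with a constant of 50. They also became 1 with the sex signal covariate and against the controls without Xist signal. They became 0 with no scaling, with 1 as the constant, under the methods' t-test (equal or unequal variances) and with Cre+ replicates 3 and 4 alone. Leaving out an array gave 0 to 1. The 3 other p53 targets called became 1 with a common median, a constant of 1, the equal-variance t-test and the sex signal covariate. They became 0 with no scaling, the unequal-variance t-test, the controls without Xist signal and Cre+ replicates 3 and 4 alone, and leaving out an array gave 1 to 2. They became 4 with a constant of 50, with trend and robust options in limma, over probe sets with a mean above 32 and after averaging each gene's probe sets. Sesn2 passed under the first 3 of these (adjusted p = 0.0447, 0.0364 and 0.0335). The causes were not tested.

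The median log2 fold change of the 10 genes was 0.59 with a constant of 1 and 0.18 with a constant of 50. It was 0.26 to 0.41 when an array was left out. Over probe sets with a mean above 32 it was 0.17, with Fas, Tnfrsf10b and Perp removed by that filter. The Tnfrsf10b probe set 1422344_s_at turned to 0.017 with the sex signal covariate, 0.0089 against controls without Xist signal and 0.028 without control replicate 3. The Trp53inp1 probe set 1416926_at turned to -0.00012 with the covariate. All-gene medians moved by at most 0.05 under any scaling.

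Replicate numbers did not pair the arrays: correlations of deviations were -0.13 to 0.00676 between the same numbers and -0.0611 to 0.106 between different numbers, and 0 of 8 arrays correlated best with their own number. With a replicate block, 0 member probe sets and 0 other p53 targets were called.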
